A study of Mus musculus with 18 samples.

Results

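Cohesin, read through its subunit SMC1A, was called in both Satb1 KO libraries and in neither WT library at 1212 genomic regions where the insulator protein CTCF was already called in WT cells. The 4 SMC1A peak lists were merged by 1 bp overlap on chromosomes 1 to 19 into 34329 regions. The 1212 members are those with a peak in both KO lists, none in either WT list, and an overlap with the 1 WT CTCF list analysed. They make up 7.96% of the 15225 regions of both KO lists at WT CTCF. The members were thus chosen by SMC1A presence by genotype and by WT CTCF presence, so their SMC1A values are given below as a description and without a test.

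The cells were double positive (DP) thymocytes sorted from thymus, profiled by CUT&RUN, in which an antibody directs a nuclease to a chromatin protein and the released DNA is sequenced. The WT group and the Satb1 KO group had both received tamoxifen, with replicate 1 of each in batch 1 and replicate 2 in batch 2. SMC1A had 2 WT and 2 KO lists, and CTCF had 1 WT list (batch 1) and 2 KO lists. The sources used here do not give the driver that deletes Satb1, the age of the mice or whether replicates were separate animals. A peak list measures neither the deletion nor the RNA markers of the cell type.

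Cohesin is a ring that pulls chromatin into loops until it meets a barrier, most often CTCF bound to DNA, so the proteins often share sites at loop anchors and domain borders. A CTCF site without a cohesin peak can be one where cohesin passes, arrives rarely or lies under the caller's threshold. SATB1 is an abundant chromatin organiser of developing T cells. In DP thymocytes such loops bear on rearrangement of the T cell receptor genes and on the choice of lineage.

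Some members covered gene starts whose sequence could be read. Of the 1212 members, 144 overlapped a promoter window listed by RefSeq (GRCm38.p6, which mm10 represents). Of them, 25 held a CTCF core, spelled CC, any 3 bases, AG, any 2 bases and GGC, on either strand in the 250 bases upstream of the start. Shares of other groups, counted by promoter, are given below. Shown here, chosen after their values were seen, are 5 of the 7 promoters with the core inside the member and within 50 bp of the WT CTCF summit. They are printed in the direction of the gene with the core in capitals. S100a6 encodes a calcium-binding protein (chr3:90612644-90612893, plus strand), Polrmt the mitochondrial RNA polymerase (chr10:79746582-79746831, minus strand) and Plcb3 a phospholipase C (chr19:6969815-6970064, minus strand). Gm38615 (chr5:129063328-129063577, plus strand) and Gm39360 (chr9:64100556-64100805, minus strand) are predicted genes.
S100a6: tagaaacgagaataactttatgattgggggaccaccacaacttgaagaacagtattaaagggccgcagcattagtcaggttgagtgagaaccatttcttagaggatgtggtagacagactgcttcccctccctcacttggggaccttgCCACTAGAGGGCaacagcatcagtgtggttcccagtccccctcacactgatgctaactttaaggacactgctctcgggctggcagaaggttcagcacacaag
Polrmt: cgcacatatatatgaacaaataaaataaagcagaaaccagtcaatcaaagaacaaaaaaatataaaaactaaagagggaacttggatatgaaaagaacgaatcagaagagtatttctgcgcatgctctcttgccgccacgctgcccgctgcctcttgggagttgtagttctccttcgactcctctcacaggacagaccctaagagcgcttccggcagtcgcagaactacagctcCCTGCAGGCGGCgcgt
Plcb3: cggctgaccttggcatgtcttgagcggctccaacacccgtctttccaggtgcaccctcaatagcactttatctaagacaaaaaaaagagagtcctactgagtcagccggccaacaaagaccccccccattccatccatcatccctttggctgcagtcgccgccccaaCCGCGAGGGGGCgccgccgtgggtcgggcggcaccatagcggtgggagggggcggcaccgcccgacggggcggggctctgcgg
Gm38615: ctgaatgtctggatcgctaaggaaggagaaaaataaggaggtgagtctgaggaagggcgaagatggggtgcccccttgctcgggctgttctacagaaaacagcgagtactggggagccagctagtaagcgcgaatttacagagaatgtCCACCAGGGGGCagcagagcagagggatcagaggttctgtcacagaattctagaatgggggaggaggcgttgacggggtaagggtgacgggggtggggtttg
Gm39360: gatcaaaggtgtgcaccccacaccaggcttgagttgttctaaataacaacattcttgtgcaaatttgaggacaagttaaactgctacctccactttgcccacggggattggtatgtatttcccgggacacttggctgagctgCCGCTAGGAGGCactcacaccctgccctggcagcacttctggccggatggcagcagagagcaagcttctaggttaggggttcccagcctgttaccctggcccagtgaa
Trim69, a ubiquitin ligase gene beside B2m (chr2:122160458-122160707, plus strand), is shown for contrast, since these core letters are not in its window. Among the 12 strongest members, those named for the gene lists and the 5 with the strongest WT CTCF, it was the only one with a listed promoter.
Trim69: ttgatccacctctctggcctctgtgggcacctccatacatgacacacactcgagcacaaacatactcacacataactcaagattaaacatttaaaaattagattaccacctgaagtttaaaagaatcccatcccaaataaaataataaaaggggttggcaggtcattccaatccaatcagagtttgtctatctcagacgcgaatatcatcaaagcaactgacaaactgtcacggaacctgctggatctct

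The core lay 19 bp from the WT CTCF summit at S100a6, 32 bp at Polrmt, 41 bp at Plcb3, 23 bp at Gm38615 and 6 bp at Gm39360. Peak strength is given as the −log10 q of the authors' peak caller, which orders peaks within 1 list and is not compared between lists. At S100a6, −log10 q was 12.6 and 9.72 in the SMC1A lists of KO replicates 1 and 2, and 10.9, 54.1 and 8.94 in the CTCF lists of WT, KO replicate 1 and KO replicate 2. At Polrmt the SMC1A values were 13.7 and 7.25, with CTCF at 16.3, 85.8 and 7.57. All 6 promoters printed carried CTCF calls in WT and in both KO libraries. Of the other two with a core as near the summit, Gm40084 did so too and Gm10610 had no CTCF peak in KO replicate 2. Counted over promoters of 300 bases, with 50 of them downstream of the start, 33 of the 169 that members touch held the core (19.5%, Wilson 95% interval 14.3 to 26.2). Some of these promoters overlap and hold the same core, and the interval treats them as independent. The share was 14.3% (13.5 to 15.2) over 6588 promoters at regions in all 4 SMC1A lists with WT CTCF. It was 15.6% (12.8 to 18.8) at regions of both KO lists and 1 WT list with WT CTCF. At WT CTCF regions of both WT lists and neither KO list it was 14.6% (8.89 to 23.0). The intervals of these groups with WT CTCF all overlapped that of members. Over all 31365 promoters of these chromosomes the share was 8.73%. The core has 7 fixed letters of 12, and a match is a description of the letters, not a measured binding site.

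The gained peaks were of modest strength. Median −log10 q was 6.36 in KO replicate 1 and 4.70 in KO replicate 2, which placed the median member at percentiles 39.5 and 29.6 of those lists. At the 11773 regions held by all 4 lists at WT CTCF, called constant below, the percentiles in the same KO lists were 77.0 and 68.4. The number of reads piled at a summit, solved from the deposited fold and p, had a median of 11 and 8 at members against 22 and 13 at constant regions. Of the members, 716 lay below the median of both KO lists, 396 had a −log10 q of 5 or more in both and 40 had 10 or more in both. Median merged width was 411 bp at members and 397.5 bp at regions lost in KO, each merged from 2 lists, and 697 bp at constant regions, merged from 4.

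**Figure D1:**
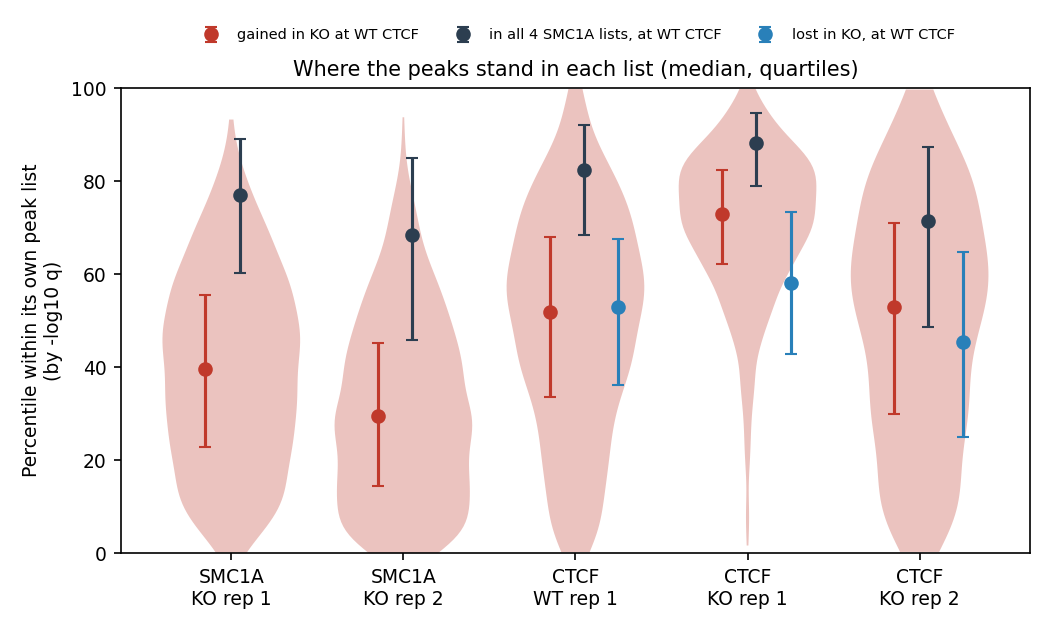
Percentile of the peak within its own list, by −log10 q, in the 2 SMC1A KO lists and the 3 CTCF lists. Shaded shapes show all members with a peak there, and points with bars show medians and quartiles for members (red), constant regions (dark) and regions lost in KO (blue, CTCF lists only); members sit below constant regions in every list, with medians of 39.5 and 29.6 in the SMC1A lists.

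Depth differed between the libraries. The lowest 1% of local backgrounds, a stand-in for depth in reads, was 0.533 and 0.465 in the WT and 0.633 and 0.384 in the KO SMC1A lists (replicates 1 and 2), which held 19466, 20152, 27459 and 20172 peaks. The lowest pile-up called in a list was 4 to 5 reads, and the number needed depends on the local background. Absence from a WT list therefore means no call, not an absence of reads. For CTCF the stand-in was 1.02 for the WT library, and 1.82 and 3.28 for KO replicates 1 and 2, with 38222, 54222 and 22351 peaks. KO replicate 2 thus had the highest CTCF background and the fewest CTCF peaks, which bears on each CTCF comparison below, and its part in them was not tested.

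At the edge of the rule the values were close. The weakest members were a region near Brd7, with −log10 q in KO of 1.36 and 3.23, one at Ric1 with 5.13 and 1.38, and one in Osbpl8 with 3.24 and 1.45. Just outside were a region in Mef2a, called in WT replicate 2 with a −log10 q of 1.33, one near Rbfa called in WT replicate 1 with 1.45, and one in Tafa2 called in WT replicate 2 with 1.46. The Tafa2 region had 12 and 6 reads at its KO summits and 4 in WT replicate 2. Pile-ups on both sides of the boundary were a few reads.

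CTCF was also called at nearly all members in KO replicate 1 and at fewer of them in KO replicate 2. In KO replicate 1, 1204 of 1212 members overlapped a CTCF peak (99.3%, Wilson 95% interval 98.7 to 99.7), against 81.6% of all WT CTCF peaks. In KO replicate 2 the number was 690 (56.9%, 54.1 to 59.7), against 46.5%. A CTCF peak was in neither KO list at 7 members (0.578%), against 17.7% of all WT CTCF peaks. At constant regions the shares were 99.6% and 84.8%, and at the 390 regions lost in KO at WT CTCF, the mirror image of the members, they were 91.3% and 31.0%. WT CTCF peaks with no SMC1A peak in any list overlapped a KO CTCF peak in 54.9% and 14.7%. Shares of members, constant and lost regions count overlaps of the merged SMC1A region. Shares of WT CTCF peaks count overlaps of the peak itself. Wider regions can meet more peaks, and the part of width was not tested. Intervals here cover counting error over regions, and 1 WT and 2 KO lists allow no test over samples.

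WT CTCF strength differed between most of these groups, but was alike at members and lost regions. The median member stood at percentile 51.9 of the WT CTCF list, against 82.4 for constant regions, 53.0 for lost regions and 24.5 for CTCF peaks without SMC1A in any list. The shares were therefore read within quintiles of the WT CTCF list, from weakest to strongest. In KO replicate 2 a CTCF peak was called at 33.1, 42.3, 50.5, 74.8 and 89.3% of members and at 35.7, 48.9, 60.9, 79.6 and 95.8% of constant regions. Lost regions ran from 14.7% in the weakest through 21.7% in the middle to 65.8% in the strongest, and CTCF peaks without SMC1A gave 6.00, 9.65, 22.9, 58.4 and 76.5%. At like WT strength, the shares of members were below those of constant regions, with intervals that overlapped in quintiles 1, 2 and 4. They were above those of both other groups in every quintile, although the interval overlapped that of lost regions in the weakest. Regions of both KO lists and 1 WT list at WT CTCF gave 39.2, 43.4, 57.0, 75.1 and 90.3%. These were above members in every quintile, with overlapping intervals, so the pattern was not particular to members. Members, constant regions and regions of both KO lists and 1 WT list were all chosen for an SMC1A call in both KO libraries. Lost regions and CTCF peaks without SMC1A were chosen for having none there. The part of this choice in the shares was not tested.

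**Figure D2:**
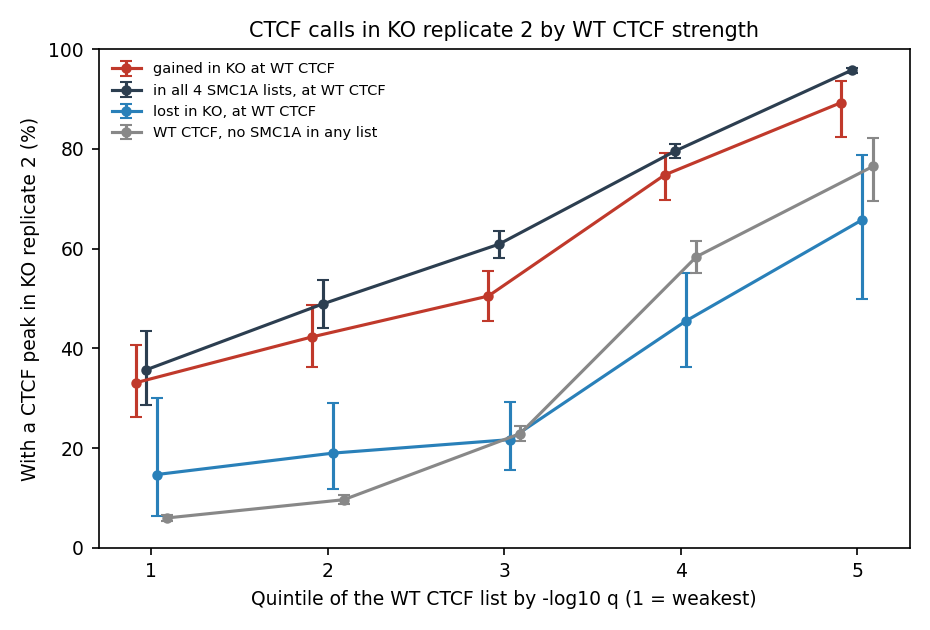
Share of regions with a CTCF peak in KO replicate 2, in percent, by quintile of the WT CTCF list (1 is weakest), with Wilson 95% intervals over regions. Members (red) rise from 33.1% to 89.3% and run close to constant regions (dark), above regions lost in KO (blue) and WT CTCF peaks without SMC1A (grey).

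CTCF at members ranked higher in KO than in WT more often than at all CTCF regions, in both KO lists. To rank the same regions in 2 lists, CTCF peaks of WT and 1 KO library were merged, and only regions held by both were ranked in each. Among 28513 regions shared with KO replicate 1, the 1195 that overlap members had a median rank of 40.8 in WT and 50.9 in KO, and 63.6% ranked higher in KO, against 48.9% of all shared regions. Among 17108 shared with KO replicate 2, the 745 at members went from a median of 29.1 to 44.3, and 65.5% ranked higher, against 51.0%. Regions of both KO lists and 1 WT list at WT CTCF, the group most like the members, also ranked higher more often, in 59.6% and 56.4%. Constant regions ranked higher in 52.0% and 44.4%, and lost regions in 33.1% and 53.8%. CTCF regions without SMC1A in any list gave 39.6% and 62.3%, so in KO replicate 2 they came near the share of members. Regions of low WT rank tend to rank higher in any second list, so quintiles of the WT rank were set side by side. In the weakest quintile the median KO rank was 36.1 for members, 41.6 for constant, 21.8 for lost and 17.9 for all shared regions in KO replicate 1. In KO replicate 2 these were 29.2, 30.4, 17.0 and 23.1. In the strongest quintile members had median KO ranks of 85.5 and 87.0, against 89.0 and 85.4 for all shared regions. Higher KO ranks of members thus lay in the weaker quintiles, where constant regions also ranked higher.

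**Figure D3:**
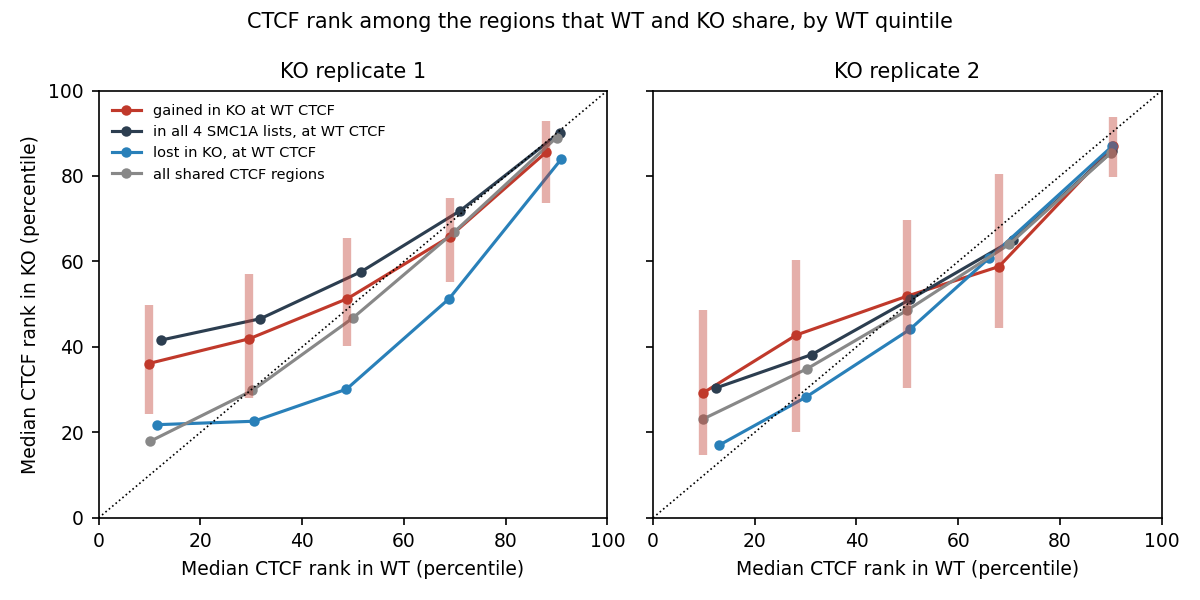
Median CTCF rank in KO against median rank in WT, both as percentiles of the regions that WT and that KO library share, by quintile of the WT rank. Red bars give the quartiles of members and the dotted line marks equal ranks; in the weakest quintile members stand at 36.1 in KO replicate 1 and 29.2 in KO replicate 2, above all shared regions (grey).

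The rule required members to overlap a WT CTCF peak, which limits the distance between SMC1A and CTCF summits. Distances are therefore set beside constant and lost regions, chosen with the same overlap. The median distance was 79 bp in KO replicate 1 and 81 bp in KO replicate 2, against 53 and 58 bp at constant regions and 89 and 82 bp at lost regions in the WT lists. Both KO summits were within 50 bp of the WT CTCF summit at 231 members and within 200 bp at 939, while at 40 members both were over 500 bp away. The KO replicates placed their SMC1A summits a median of 65.5 bp apart. Across members the −log10 q of the SMC1A lists had a Spearman rho of 0.365 between KO replicates (n = 1212) and 0.0904 between SMC1A of KO replicate 1 and CTCF of WT. Between SMC1A and CTCF of KO replicate 1 it was 0.350 (n = 1204), and of KO replicate 2 it was 0.126 (n = 690). These points share local background and, within a replicate, batch, and are descriptions.

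**Figure D4:**
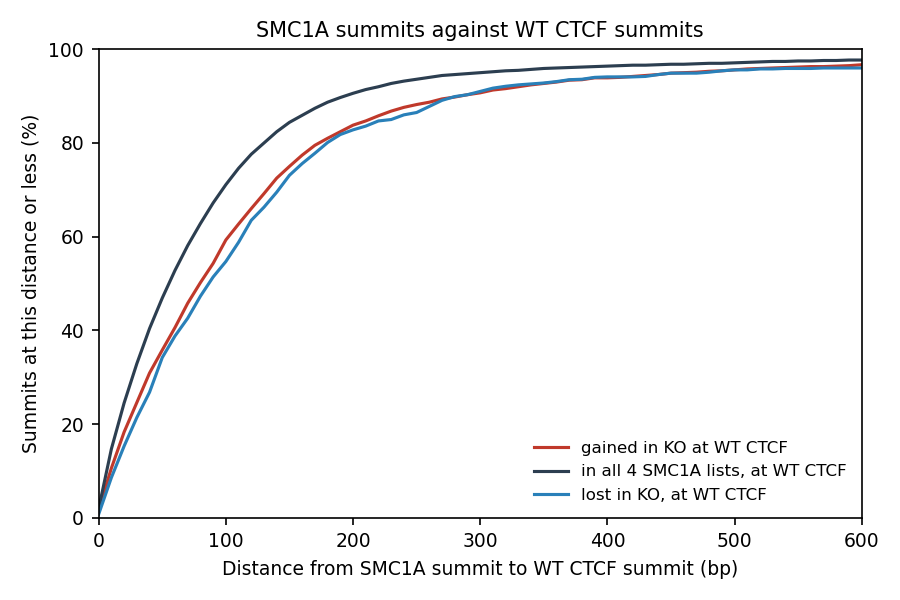
Cumulative share of SMC1A summits, in percent, by distance in bp from the WT CTCF summit, for members (both KO lists), constant regions (both KO lists) and lost regions (both WT lists). The member curve lies under that of constant regions and beside that of lost regions, with KO medians of 79 and 81 bp.

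Some members lay beside SMC1A peaks of WT cells. A WT SMC1A peak lay within 1 kb of 218 members (18.0%), and at 60 the same WT CTCF peak also overlapped a WT SMC1A peak. Among the 33 members with a WT CTCF peak above percentile 90 of its list, 19 (57.6%) had WT SMC1A within 1 kb. Of the 5 with the strongest WT CTCF, those at Crem, Gatad2a, Hexim1 and Brd2 had SMC1A summits 706 to 1854 bp from the CTCF summit and a WT SMC1A peak 25, 280, 39 and 954 bp away. Crem encodes a cAMP-responsive factor, Gatad2a a subunit of the NuRD complex, Hexim1 an inhibitor of P-TEFb and Brd2 a bromodomain protein. At Crem the gained piece had 9 reads at its summit in each KO library, under a CTCF peak of 132 reads in WT. The 994 members over 1 kb from WT SMC1A had a median summit distance of 72 bp and a CTCF peak in KO replicate 2 in 60.2%, against 135 bp and 42.2% for the 218. The median member was 9718 bp from a WT SMC1A peak, 21324 bp from a constant region and 315858 bp from another member.

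The strongest gain lay near Kdr, the gene of VEGF receptor 2 (chr5:75870791-75871744), 61516 bp from the gene body. SMC1A had −log10 q of 39.9 and 30.3 with 36 and 25 reads at the summit in the KO libraries, and no peak in WT. CTCF had 14.5 in the WT list, and 112 and 55.7 in those of KO replicates 1 and 2, which are percentiles 69.6, 93.6 and 98.5 of those lists. In Lig4, which encodes the DNA ligase that closes V(D)J joins (chr8:9975131-9975776), SMC1A had KO −log10 q values of 19.9 and 20.8. CTCF there had 6.79 in WT and 153 in KO replicate 1, percentiles 46.2 and 96.3, and no peak in KO replicate 2. A WT SMC1A peak was 159 bp from the Lig4 region.

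In Galnt10, a gene of mucin-type glycosylation (chr11:57664753-57665406), SMC1A had 18.3 and 20.1, and CTCF stood at percentile 11.8 in WT and at 86.9 and 34.6 in KO. Near Pde2a, a cyclic nucleotide phosphodiesterase (chr7:101540726-101541554), SMC1A had 19.8 and 13.9. CTCF at Pde2a stood at percentile 1.68 in WT and at 91.4 and 39.4 in the KO lists. Near Gtsf1l (chr2:163102922-163103738) SMC1A had 41.4 and 15.0, and CTCF stood at 22.8, 90.7 and 43.8. These percentiles come from lists of different length and show where the peak stood in each list, not a change in binding.

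The region near Tmem196 (chr12:120028768-120029022) was unlike the others. Its −log10 q of 31.7 and 23.8 came with a fold over local background of only 2.19 and 2.37, since the background there was 146 and 86.2 reads. CTCF at Tmem196 had a fold of 3.14 in WT and 2.12 in KO replicate 2. Including it, 3 members had a local SMC1A background over 5 reads in a KO list. The remaining regions of the 12 strongest lay in Disp1, which serves Hedgehog release, near Trim36, near Gpr65, a proton-sensing receptor, in Atad1, which clears mislocalised membrane proteins, in Gm4070 and near Unc93a2. Over the 12, WT CTCF percentiles ran from 1.68 to 99.5 with a median of 50.2, the lowest in KO replicate 1 was 79.2, and 3 (Lig4, Disp1 and Trim36) had no CTCF peak in KO replicate 2.

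At 5 of the 7 members without CTCF in either KO list, the strongest by SMC1A, the genes were Ermn, Dgkd, Abl2, Fbxl12 and Trib1. Near Ermn (chr2:58054767-58055010) the WT CTCF peak was strong, with a −log10 q of 29.2 at percentile 86.0, but the SMC1A summits were 648 and 731 bp from it and had 7 and 6 reads. At Abl2, a tyrosine kinase gene (chr1:156558541-156558955), SMC1A had −log10 q of 2.56 and 3.69 at 62 and 140 bp from a WT CTCF summit at percentile 47.7. The WT CTCF peaks at Dgkd, Fbxl12 and Trib1 were at percentiles 12.5, 24.5 and 13.2.

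Among genes of T cell development, gains were few, and their share was close to that near all protein-coding genes. Within 20 kb of protein-coding genes, 7.58% of regions of both KO lists at WT CTCF were members. At 30 T-lineage transcription factors the count was 9 of 113 (7.96%), among them at Tcf7, Runx3, Id3, Ikzf1, Ikzf3, Foxo1 and Notch1. In Ikzf3, which encodes Aiolos (chr11:98479555-98480403), SMC1A had a −log10 q of 13.2 (KO replicate 1) and 12.6 (KO replicate 2), with 20 and 16 reads. CTCF at Ikzf3 had 3.65 in WT, and 50.1 and 3.20 in KO replicates 1 and 2, percentiles 20.7, 81.7 and 16.4. Near Id3, an inhibitor of E proteins (chr4:136149213-136150160), SMC1A had 10.8 and 11.4 with 16 and 15 reads. CTCF at Id3 had 13.3, 95.5 and 13.8, percentiles 67.1, 91.8 and 77.0. These −log10 q values are not compared between lists. In Foxo1 and Notch1, a homeostasis factor and the receptor that starts T cell commitment, SMC1A had 6.62 and 5.70, and 5.68 and 6.95, with no CTCF peak in KO replicate 2. WT SMC1A peaks stood 915, 720 and 386 bp from the Id3, Foxo1 and Notch1 regions.

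T cell receptor, coreceptor and signalling genes held 5 members of 91 regions (5.49%). Among them were regions at Cd247, the CD3 zeta chain, with −log10 q in KO of 3.08 and 3.23, and Lcp2, the adaptor SLP-76, with 2.32 and 2.78. A region near the protease gene Prss2 and the T cell receptor beta constant genes had 3.30 and 5.97. One near Amph and Trgc1, the gamma constant gene, had 13.4 and 3.42. At the Amph region CTCF stood at percentile 8.18 in WT and at 88.9 and 71.5 in the KO lists. WT SMC1A peaks stood 2192, 4095, 479 and 58133 bp from the Cd247, Lcp2, Prss2 and Amph regions. No member lay within 20 kb of Cd4, Cd8a, Rag1, Rag2 or Cd3e.

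Regulatory T cell genes held 2 of 16, in Il2ra, the high-affinity IL-2 receptor chain (−log10 q of 5.24 and 3.08), and in Nrp1, a semaphorin coreceptor (9.40 and 6.63). Both had a CTCF peak in WT and KO replicate 1 but not in KO replicate 2. The region in Nrp1 was 128014 bp from any WT SMC1A peak. Cytokine genes held 1 of 18, in Ifngr1, the interferon gamma receptor (5.38 and 6.09). CTCF there had −log10 q of 16.2, 88.6 and 6.30 in WT and KO replicates 1 and 2, percentiles 72.4, 90.8 and 46.0. Migration genes held 1 of 24, near Plxnd1, survival and death genes 0 of 39, and signal brakes 2 of 36. The latter were in Ptpn22, a phosphatase that dampens receptor signals (13.2 and 12.3), and near Nfkbia, the NF-κB inhibitor (4.80 and 6.63). Cohesin and CTCF machinery genes held 2 of 39, near Mau2, part of the cohesin loader, and in Lmnb1, a lamin gene. Housekeeping genes held 2 of 28, in Polr2a and near B2m. WT SMC1A peaks stood 280, 369, 226 and 784 bp from the Mau2, Lmnb1, Plxnd1 and Nfkbia regions. They stood 7952, 2505, 1044, 2749 and 12513 bp from those at Il2ra, Ifngr1, Ptpn22, Polr2a and B2m. KO SMC1A summits were 911 and 757 bp from the WT CTCF summit at Mau2, and 342 and 358 bp at Lmnb1. At Plxnd1 they were 576 and 622 bp away.

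DP marker genes held 4 of 41 (9.76%), among them at Cd24a and Arpp21. WT SMC1A peaks stood 232 bp from the Cd24a region, and 3077 and 1249 bp from those in Arpp21. At Cd24a the KO SMC1A summits were 901 and 1327 bp from the WT CTCF summit. Markers of other cell types gave 1 of 13 for B cells (7.69%), in Blnk, and 1 of 7 for myeloid cells (14.3%), near S100a9. Thymic epithelium gave 2 of 13 (15.4%), both near Prss16, a thymic protease gene. The share near all protein-coding genes was 7.58%, and a peak near a marker gene does not measure the purity of the sort. The stronger region near Prss16 had KO −log10 q values of 18.4 and 8.40 and CTCF calls in all 3 lists. WT SMC1A peaks stood 5944 bp from it and 900 bp from the weaker one. They stood 1442 and 86429 bp from the Blnk and S100a9 regions. With so few regions a list, 1 member moves a share by several points.

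Members were spread over all 19 chromosomes. On chromosome 14 they made up 12.6% of regions of both KO lists at WT CTCF, the highest, and on chromosome 17 5.65%, the lowest. Of the windows of 1 Mb with any member, 499 held 1, 190 held 2 and 66 held 3. The densest, chr14:69000001-70000000, held 9 members of 19 regions of both KO lists at WT CTCF, at Nkx2-6, Gm21451, Entpd4, Entpd4b, LOC115488278 and Pebp4. Each WT list had 12 SMC1A peaks there, while KO replicates 1 and 2 had 50 and 28. Entpd4 and Entpd4b are near-identical copies of a nucleotidase gene, so reads there may be placed on the wrong copy, and their values are uncertain. The 9 regions had 9 to 16 reads in KO replicate 1 and 6 to 9 in KO replicate 2, and none was among the 12 strongest.

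Another 10 windows held 5 members each. Those on chromosome 14 from 53000001 and from 54000001 hold or adjoin the T cell receptor alpha and delta genes near Dad1, with 5 of 12 and 5 of 24 regions. In the first, the WT lists had 17 and 12 SMC1A peaks, and KO had 50 and 21. On chromosome 13 from 19000001, the window of the gamma genes beside Amph, 5 of 7 were members, where each WT list had 3 peaks and KO had 19 and 12. The receptor genes rearrange in thymocytes, and the input libraries were not read here. Whether DNA content in these windows differed between WT and KO was therefore not tested. On chromosome 4 from 88000001, a window with Ifne and other type I interferon genes, 5 of 26 were. The rest were on chromosome 4 from 141000001, 5 from 136000001, 7 from 30000001, 11 from 76000001, 14 from 55000001 and 18 from 35000001. In each of these windows the KO replicate 1 list held the most SMC1A peaks of the 4, and its greater length was not separated from this count.

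Members lay away from gene starts more often than constant regions did. A listed start was within 1 kb of 217 of 1172 members measured (18.5%, 16.4 to 20.8), against 44.0% of constant regions and 28.3% of lost ones. At regions of both KO lists and 1 WT list at WT CTCF the share was 24.6%, also below that of constant regions. The median distance to a start was 11466 bp at members, 9853.5 bp at those regions and 2967 bp at constant regions. The SMC1A summit was inside a protein-coding gene body at 672 members (55.4%, 52.6 to 58.2), against 50.2% of constant regions. The share was higher still at lost regions, with 234 of 390 (interval 55.1 to 64.7%). It was 52.5% (50.5 to 54.6) at regions of both KO lists and 1 WT list at WT CTCF. Both intervals overlapped that of members. Regions of both KO lists and neither WT list without WT CTCF also gave 55.4%, so this share was not particular to members. Over 100 kb from a protein-coding gene were 43 members (3.55%), against 2.12% of constant regions and 4.1% of lost regions. At regions of both KO lists and 1 WT list at WT CTCF this share was 2.59%.

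Each batch was then used to choose regions that were read in the other batch. Batch 1 held 5683 SMC1A regions at WT CTCF in KO and not in WT (27.3% of its KO regions there). Of these, 41.1% (39.8 to 42.4) were in the KO list of batch 2 and 34.5% (33.3 to 35.8) in its WT list, which are of nearly equal length. Of them, 1212, the members, were in KO alone, 840 in WT alone, 1123 in both and 2508 in neither. The mirror choice, 1536 regions of batch 1 in WT and not in KO (9.19%), gave 24.4% in KO and 39.2% in WT of batch 2. The members are part of the first choice, so these shares describe the lists and are no separate support for the gains. Of 3160 regions gained in batch 2 (19.2%), 73.7% were in the KO list of batch 1 and 40.5% in its WT list. The 3539 regions lost in batch 2 (21.0%) were also more often in KO, 63.7% against 51.0%, in batch 1, where the KO list is the longer. With lists of equal length 796 regions met the rule for members, and the shares for gains of batch 2 were 55.32% and 42.59%. The labels do not separate batch from replicate, so spread within a batch cannot be had.

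**Figure D5:**
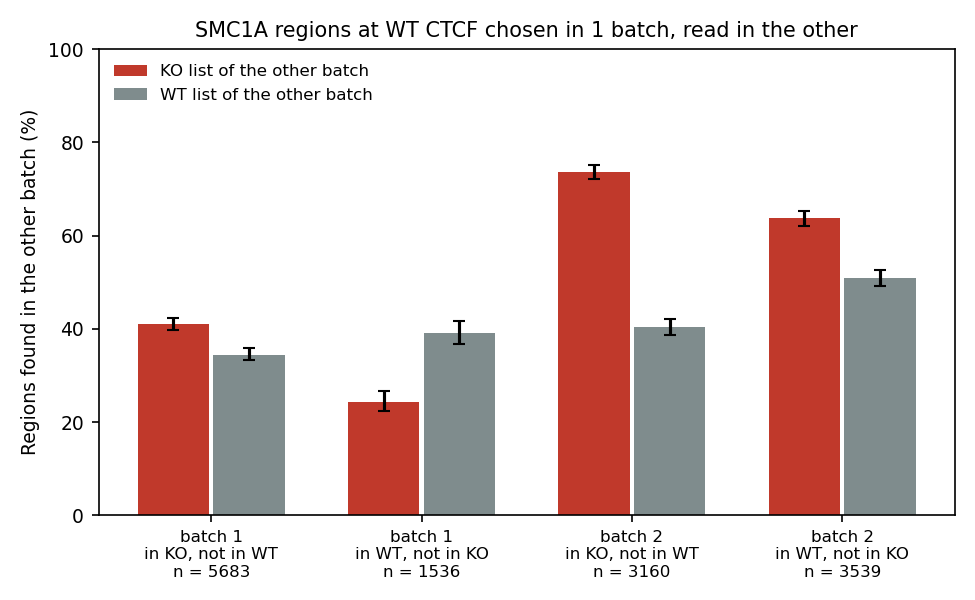
Share of SMC1A regions at WT CTCF, chosen in 1 batch for presence in only 1 genotype, that the KO list (red) and the WT list (grey) of the other batch hold, in percent with Wilson 95% intervals over regions. Gains of batch 1 were found in 41.1% in KO and 34.5% in WT, and losses of batch 1 in 24.4% and 39.2%; in batch 1 itself the KO list is the longer.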

How the data were processed

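CUT&RUN peak lists were analysed for 7 of 18 samples. Per the submitters' processing notes, the tools were Trimmomatic 1.24, Bowtie2, SAMtools, deepTools, MACS2 and R 4.12 on mm10, with settings not given in the sources used here. Each deposited list, called per library, gives a fold enrichment (ratio), −log10 p and −log10 q per peak. The members and gene lists were chosen with earlier results of these data known. Overlaps, ranks within lists and Wilson intervals were computed in Python 3.11.15 with numpy 2.4.6, pandas 2.3.3 and scipy 1.17.1, and the steps were tested on simulated data. Pile-up and background were solved as whole reads that met the −log10 p within 0.001. Genes and promoters came from RefSeq tables of GRCm38.p6, in which all 193 genes of the 13 lists were found. Exons were not annotated, and starts and promoters on chromosome 18 were not used here. Regions take the gene holding the summit, or the nearest within 100 kb. Some named genes are not reported here.

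Named were the 12 members with the highest lower −log10 q, up to 4 per gene list, the 5 densest windows with ties, 3 regions on each side of the rule, the 5 with the strongest WT CTCF and 5 without KO CTCF. Alternatives were stricter q, equal list lengths, closer summits, larger overlaps, added sex chromosomes, each SMC1A replicate left out, and, chosen after seeing the data, members over 1 kb from WT SMC1A.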

Additional observations from a re-analysis of the deposited data

How the results depend on the processing

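The 1212 members became 796 with lists of equal length, and 1970 to 3754 when an SMC1A replicate was left out, which drops a condition of the rule: 2343 and 2344 with the first or the second WT list dropped, 1970 and 3754 with the first or the second KO list dropped. The share with CTCF in KO replicate 1 stayed near its value: 100% with SMC1A −log10 q of 5 or more, 99.87% with equal lengths, 99.67% with WT CTCF −log10 q of 5 or more, and 96.03 to 99.66% leaving out a replicate. In KO replicate 2 it was 69.94%, 61.56% and 63.82% in that order, 43.55 to 63.82% leaving out a replicate, and 60.16% for members over 1 kb from WT SMC1A. The share in gene bodies was 50.78% with SMC1A −log10 q of 5 or more. The median summit distance was 69 bp (SMC1A q), 73 bp (equal lengths), 73 bp (WT CTCF q), 59 bp (summits within 200 bp), 72 bp (over 1 kb from WT SMC1A) and 78 to 91.5 bp leaving out a replicate. The median WT CTCF percentile was 58.76 (SMC1A q), 59.93 (WT CTCF q) and 48.30 to 57.56 leaving out a replicate. The share ranked higher in KO was 69.24% (SMC1A q), 67.42% (equal lengths), 54.64% (WT CTCF q) and 56.28 to 62.11% (leaving out a replicate) for KO replicate 1. For KO replicate 2 it was 60.78% (WT CTCF q), 69.07% (over 1 kb from WT SMC1A) and 59.79 to 62.13% (leaving out a replicate). Batch 1 gains were found in KO and WT of batch 2 in 36.27% and 31.29% (SMC1A q), 51.83% and 41.39% (equal lengths) and 44.39% and 39.23% (WT CTCF q). Batch 2 gains were found in KO and WT of batch 1 in 75.88% and 42.50%, 55.32% and 42.59%, and 76.41% and 43.83%. With 1 mismatch allowed, the core was in 82.2% of member promoters, against 65.4% of all promoters and 84.0% at constant regions. The causes of these shifts were not tested. Members near listed genes depend on the distance: T-lineage factors had 7 inside gene bodies and 17 within 100 kb, and receptor and signalling genes 1 and 12.

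No paired analysis was possible because each result is a count, share, median or rank that comes from no test, so there was no fit to block. Values within each batch stand in the report. The lowest SMC1A pile-up called in a list was 4 to 5 reads, and more were needed where the local background was higher, so absence in WT means no call.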
